A study of Homo sapiens with 10 samples.

Results

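MHC class I antigen presentation was followed through 9 genes of the bulk RNA-seq count table. They were 3 class I heavy chains (HLA-B, HLA-C and HLA-E), the light chain B2M, the peptide transport and loading genes TAP1, TAP2 and TAPBP, and the immunoproteasome subunits PSMB8 and PSMB9. The genes were chosen by name, and each symbol matched 1 Ensembl identifier, so that 9 of the 55841 counted genes were taken. On chromosome 6 lie 8 of them, and B2M lies on chromosome 15.

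The study compared the general, unsorted population of a human embryonic stem cell line with the HHH fraction, which was sorted by flow cytometry for the highest surface levels of EPCAM, GCTM2 and CD9. Batch 1 held 4 libraries (2 per population) and batch 2 held 6 (3 per population), so that 10 libraries were compared. All were cultured in mTESR1 on matrigel. The labels name the line HES9, whereas the text of the study names WA09 for its transcriptomes, and this difference was not resolved. The design text also mentions protein kinase C inhibitor treatment, which none of these labels carries. No label states that replicates came from separate cultures, so p-values measure only the spread between these libraries.

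MHC class I molecules carry short peptides from inside the cell to its surface, where CD8 T cells and natural killer cells read them. Proteasomes cut proteins into peptides, the TAP1 and TAP2 transporter moves the peptides into the endoplasmic reticulum, and tapasin (TAPBP) holds the empty heavy chain and B2M complex beside the transporter until a peptide is bound. Interferons raise most of these genes, including the immunoproteasome subunits that replace constitutive catalytic subunits. Pluripotent stem cells are known for low surface class I.

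TAP1 (GENCODE 44 on GRCh38, chr6:32845209-32853816, minus strand) and PSMB9 (chr6:32844136-32859851, plus strand) are neighbours with RefSeq start sites that face away from each other, and the sequences around their start sites are given because these were the members with the largest differences between populations. The promoters of B2M and TAPBP are given for comparison, as members with paired matches to the core of the interferon-stimulated response element. The sequences are from RefSeq on GRCh38.p14, in which 8 of the 9 members had at least 1 entry (not HLA-E). Each runs 5′ to 3′ on the gene's own strand, as the 250 bases before the start site followed by 50 bases from the start site on, and capitals mark matches to GAAANNGAA on either strand.
TAP1 at chr6:32853655-32853954, minus strand: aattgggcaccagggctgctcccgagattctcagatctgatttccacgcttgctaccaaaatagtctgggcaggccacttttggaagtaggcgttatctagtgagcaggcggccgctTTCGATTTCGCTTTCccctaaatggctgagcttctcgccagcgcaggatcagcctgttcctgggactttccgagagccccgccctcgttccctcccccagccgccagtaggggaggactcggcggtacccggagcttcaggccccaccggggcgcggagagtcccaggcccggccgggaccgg
PSMB9 at chr6:32853942-32854241, plus strand: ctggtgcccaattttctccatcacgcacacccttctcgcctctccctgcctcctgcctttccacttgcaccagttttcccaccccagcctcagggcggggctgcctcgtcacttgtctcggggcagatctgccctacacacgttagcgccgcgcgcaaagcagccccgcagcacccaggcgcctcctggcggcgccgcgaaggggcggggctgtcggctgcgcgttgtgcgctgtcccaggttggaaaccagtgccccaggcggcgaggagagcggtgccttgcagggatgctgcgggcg
B2M at chr15:44711267-44711566, plus strand: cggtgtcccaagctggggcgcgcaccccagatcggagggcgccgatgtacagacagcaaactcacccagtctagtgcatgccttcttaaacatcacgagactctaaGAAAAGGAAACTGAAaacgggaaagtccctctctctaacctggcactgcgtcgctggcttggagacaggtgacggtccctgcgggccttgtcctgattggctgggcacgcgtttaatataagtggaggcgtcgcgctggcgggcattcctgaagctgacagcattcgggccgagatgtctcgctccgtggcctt
TAPBP at chr6:33314029-33314328, minus strand: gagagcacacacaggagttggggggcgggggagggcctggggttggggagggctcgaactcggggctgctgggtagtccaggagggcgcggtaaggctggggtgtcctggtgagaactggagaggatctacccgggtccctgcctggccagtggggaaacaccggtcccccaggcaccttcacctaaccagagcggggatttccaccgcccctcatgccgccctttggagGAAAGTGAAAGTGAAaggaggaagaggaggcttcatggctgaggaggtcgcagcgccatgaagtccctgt

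The start sites of TAP1 and PSMB9 were 488 bases apart and their windows shared 13 bases, which held a CCAAT match counted in both. GAAANNGAA was found in 5 of the 10 windows of the 8 members (1 each of TAP1, TAP2, PSMB8, TAPBP and B2M), against 8.1% of all 35116 windows of 300 bases. In TAP1, TAPBP and B2M, 2 overlapping matches stood in a row. TGACG, the core of the X2 box of class I promoters, was found in 6 of the 10 windows, against 24.6% of all windows. CCAAT, which is bound by the NF-Y factor, was in 5 of 10, against 34.6%. GGGNNTTCC, a form of the NF-kappaB motif, was in 4 of 10, against 6.6%. TTCNNNGAA, the gamma-activated site, was in 2 of 10, against 7.7%, and GGGCGG, the GC box, in 8 of 10, against 45% of all windows. These are matches of letters on both strands, without evidence of binding.

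Total counts ranged from 47242595 to 78503395 per library in batch 1 and from 50728201 to 54770111 in batch 2, and the TMM scaling factors from 0.832 to 0.925 in batch 1 and from 1.03 to 1.18 in batch 2. EPCAM, an antigen of the sort, was 148 ± 37.2 CPM (counts scaled to library size; mean ± SD, n = 5) in general and 196 ± 42.0 CPM in HHH libraries, with a log2 fold change of 0.41 (edgeR adjusted p = 0.00645). CD9, another, was 71.2 ± 23.2 CPM and 84.0 ± 10.6 CPM (log2 fold change 0.29, edgeR adjusted p = 0.195, or 0.0186 with same-numbered libraries as a block). For the label of a stem cell line, the pluripotency factor POU5F1 was read at 516 ± 30.9 CPM in general and 569 ± 72.6 CPM in HHH libraries.

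Of the 9 members, all passed the filter on low counts and 1, TAP1, passed the test between HHH and general (adjusted p under 0.05). Over all 23552 genes tested, 5.83% passed in either direction, and 3.89% passed with a lower level in HHH. By sign, 7 members were lower and 2 higher in HHH. The median log2 fold change of the members was -0.07, beside 0.02 over all tested genes. Because these are bulk libraries, fewer cells of a type and less RNA per cell cannot be told apart.

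**Figure D1:**
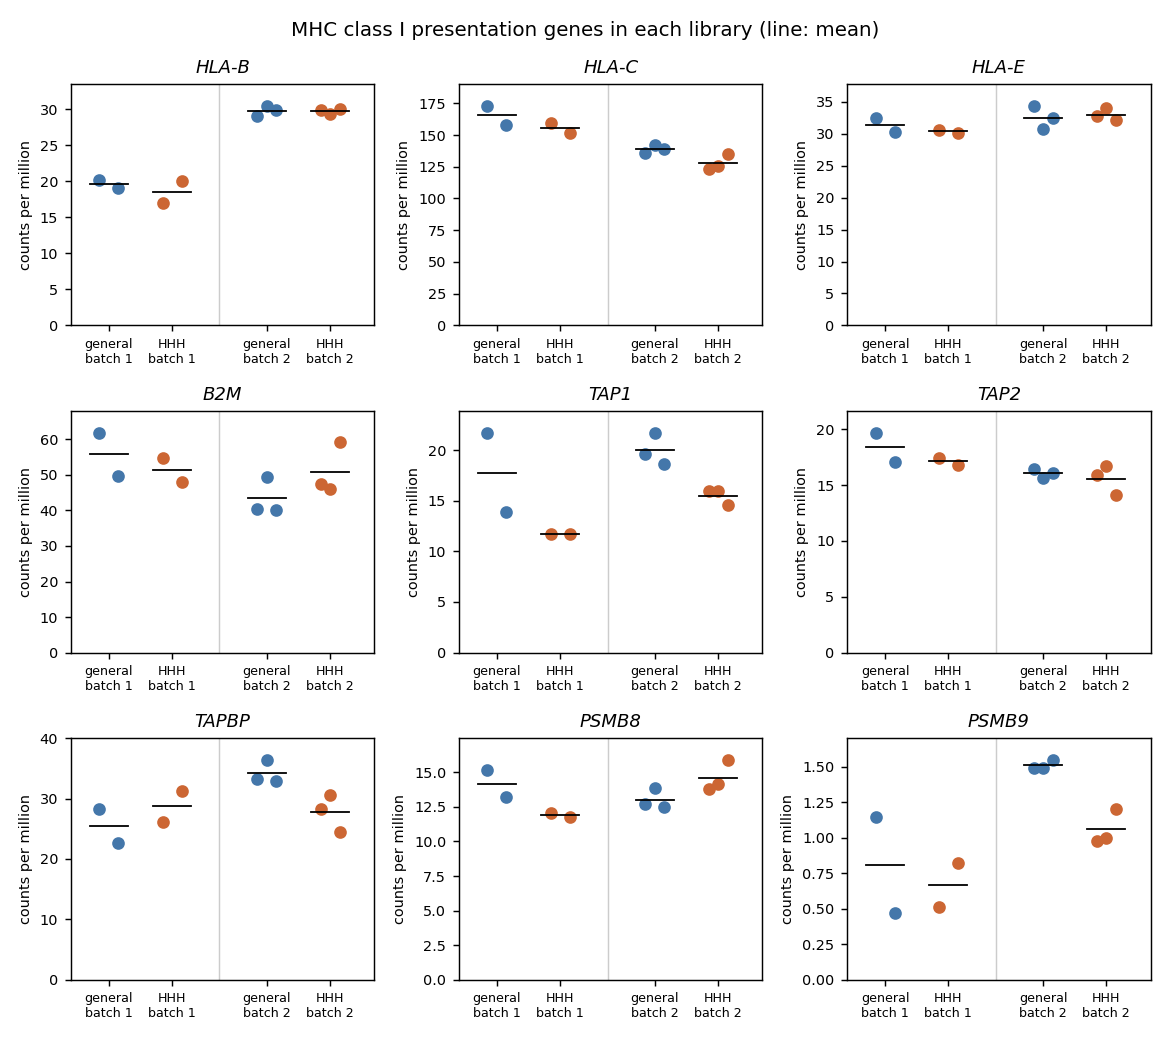
CPM (y axis, from 0) of each member in each of the 10 libraries, with general libraries in blue, HHH libraries in orange and batches side by side; each point is a library and each line a group mean. TAP1 lies lower in every HHH library than in every general library of its batch, HLA-B is at 17.0 to 20.2 CPM in batch 1 and at 29.0 to 30.5 CPM in batch 2. HHH libraries lie below general ones in batch 2 only for HLA-C, TAPBP and PSMB9, and in batch 1 only for PSMB8. The share of all genes apart in a single batch is not given, so this is no result about these members.

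HLA-B, HLA-C and HLA-E encode heavy chains, HLA-B and HLA-C presenting peptides to T cells and HLA-E mainly engaging the natural killer receptor NKG2A. None of the 3 passed. HLA-C was read at 173 and 158 CPM in the general libraries of batch 1 and at 159 and 152 CPM in the HHH libraries. In batch 2 it was at 136, 142 and 139 CPM in general and at 123, 126 and 135 CPM in HHH libraries. The HHH libraries of batch 2 were thus all below the general ones, while those of batch 1 overlapped. The log2 fold change of HLA-C was -0.11 (95% confidence interval -0.24 to 0.03, edgeR adjusted p = 0.369).

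HLA-B was 25.7 ± 5.63 CPM in general and 25.2 ± 6.27 CPM in HHH libraries (n = 5 each). Its log2 fold change was -0.03 (interval -0.18 to 0.11, edgeR adjusted p = 0.817). HLA-E was the steadiest heavy chain, at 30.2 to 34.4 CPM in general and 30.1 to 34.1 CPM in HHH libraries. Its log2 fold change was -0.0055 (interval -0.14 to 0.13, edgeR adjusted p = 0.974). Class I genes are close copies of one another and this line's alleles were not examined, so how the counting divided shared reads among them is uncertain. HLA-B also shares 30.7% of its exonic length with the pseudogene DHFRP2, which had 0 to 1 counts.

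B2M encodes the light chain that every classical class I molecule needs. In batch 1 it was at 61.8 and 49.7 CPM in general and at 54.8 and 47.9 CPM in HHH libraries. In batch 2 it was at 40.5, 49.4 and 40.2 CPM in general and at 47.3, 46.1 and 59.4 CPM in HHH libraries. The groups overlapped in both batches, and the HHH mean was the lower one in batch 1 and the higher one in batch 2. The log2 fold change of B2M was 0.09 (interval -0.14 to 0.32, edgeR adjusted p = 0.667). The 3 heavy chains summed, divided by B2M, gave a ratio of levels per exon length (RPKM, CPM per kilobase of exon) of 4.27 and 4.86 in general and of 4.42 and 4.89 in HHH libraries of batch 1. For batch 2 the ratio was 4.65 to 5.66 in general and 3.76 to 4.61 in HHH libraries, so that the ranges overlapped in batch 1 and not in batch 2, and the difference was not tested.

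TAP1, one of the 2 chains of the peptide transporter, was the member that fell. In batch 1 it was at 21.7 and 13.9 CPM in general and at 11.7 and 11.7 CPM in HHH libraries. In batch 2 it was at 19.6, 21.7 and 18.6 CPM in general and at 15.9, 16.0 and 14.6 CPM in HHH libraries. Every HHH library was below every general library of its batch, which held for no other member and for 5.42% of all tested genes. For genes or ratios apart in a single batch, no such share over all genes is given. Over both batches the mean was 19.1 ± 3.22 CPM in general and 14.0 ± 2.16 CPM in HHH libraries (n = 5 each), from 512 to 1417 counts. The log2 fold change of TAP1 was -0.46 (SE 0.11, interval -0.70 to -0.23, 0.727 of the general level, edgeR adjusted p = 0.0229). The call was lost without HHH replicate 2 of batch 1 (log2 fold change -0.43, edgeR adjusted p = 0.0628) and without general replicate 2 of batch 2 (-0.44, edgeR adjusted p = 0.0651).

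TAP2, the partner chain, was 17.0 ± 1.60 CPM in general and 16.2 ± 1.29 CPM in HHH libraries (log2 fold change -0.07, interval -0.23 to 0.10, edgeR adjusted p = 0.658). TAP2 shares 19.5% of its exonic length with another protein-coding gene on the same strand. The ratio of TAP1 to TAP2 in RPKM was 1.77 and 2.41 in general and 1.46 and 1.52 in HHH libraries of batch 1, and 2.54 to 3.03 in general and 2.09 to 2.26 in HHH libraries of batch 2. It was lower in HHH without overlap in both batches, and this difference was not tested. Some 14.2% of the exonic length of TAP1 lies opposite the antisense RNA PSMB8-AS1, and without a stated strand setting reads of the pair cannot be told apart there. PSMB8-AS1 itself was read at 129 to 349 counts, with a log2 fold change of -0.28 (edgeR adjusted p = 0.225).

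TAPBP encodes tapasin, the loading chaperone. In batch 1 it was at 28.2 and 22.7 CPM in general and at 26.1 and 31.3 CPM in HHH libraries. In batch 2 it was at 33.3, 36.4 and 32.9 CPM in general and at 28.3, 30.6 and 24.5 CPM in HHH libraries. The groups overlapped in batch 1, whereas in batch 2 all HHH libraries were below all general ones. The log2 fold change of TAPBP was -0.11 over both batches (interval -0.34 to 0.12, edgeR adjusted p = 0.592).

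PSMB8 and PSMB9 encode catalytic subunits of the immunoproteasome, taking the places of PSMB5 and PSMB6. PSMB9 was the lowest member, at 24 to 93 counts. In batch 1 it was at 1.15 and 0.469 CPM in general and at 0.514 and 0.823 CPM in HHH libraries. In batch 2 it was at 1.49, 1.49 and 1.55 CPM in general and at 0.978, 1.00 and 1.20 CPM in HHH libraries, so that the groups overlapped in batch 1 and were apart in batch 2. Its log2 fold change of -0.43 was close to that of TAP1, but with a wider interval (SE 0.21, interval -0.89 to 0.02, edgeR adjusted p = 0.264). Without general replicate 1 of batch 1 it was -0.27, and over the leave-one-out fits it ranged from -0.59 to -0.27. PSMB8 was at 15.1 and 13.2 CPM in general and at 12.1 and 11.8 CPM in HHH libraries of batch 1, where HHH was lower without overlap. In batch 2 it was at 12.7, 13.8 and 12.5 CPM in general and at 13.8, 14.1 and 15.9 CPM in HHH libraries, where HHH had the higher mean and the ranges overlapped. Over both batches it was 13.5 ± 1.06 CPM in general and 13.5 ± 1.68 CPM in HHH libraries (log2 fold change 0.0018, interval -0.20 to 0.21, edgeR adjusted p = 0.995). PSMB8 shares 17.3% of its exonic length with PSMB8-AS1 on the opposite strand, and PSMB9 shares 5.21% with it on the same strand. PSMB8 and PSMB9 also share 139 exonic bases on opposite strands. How reads in these stretches were assigned is not stated.

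The constitutive subunits were far more abundant per length. The ratio of PSMB8 to PSMB5 in RPKM was 0.0365 ± 0.00695 in general and 0.0331 ± 0.00889 in HHH libraries, and that of PSMB9 to PSMB6 was 0.00482 ± 0.00205 and 0.00313 ± 0.000891 (n = 5 each). Within batches, PSMB8 to PSMB5 was 0.0267 to 0.0328 in general and 0.0217 to 0.0253 in HHH libraries of batch 1, without overlap, and it overlapped in batch 2. PSMB9 to PSMB6 overlapped in batch 1 and was 0.00591 to 0.00658 in general and 0.00354 to 0.00382 in HHH libraries of batch 2, without overlap. Neither difference was tested.

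**Figure D2:**
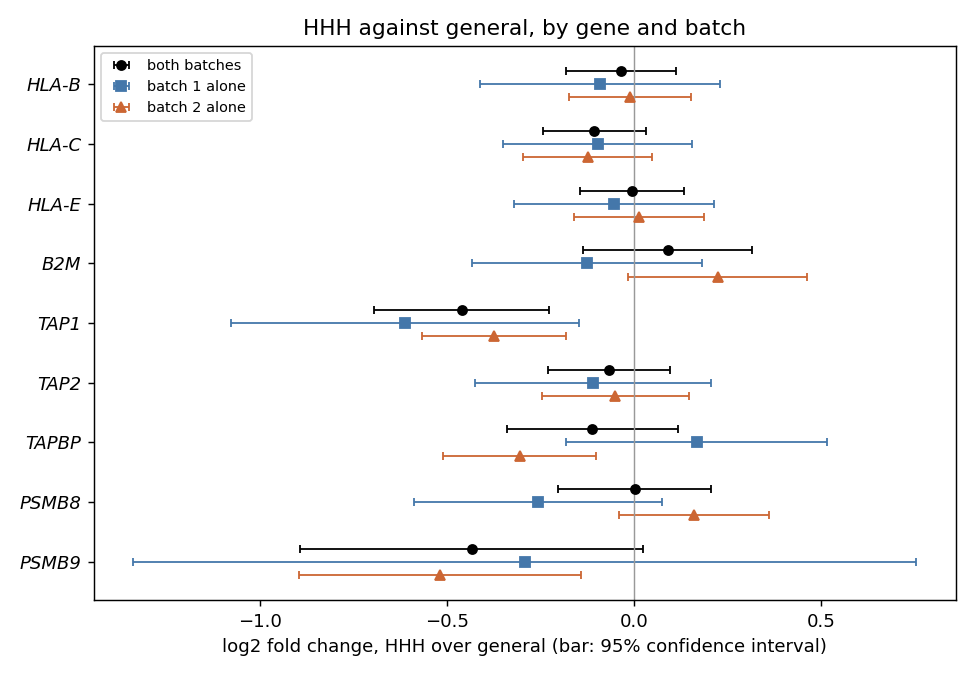
Log2 fold change of HHH over general (x axis) for each member (y axis), with 95% confidence intervals, over both batches (circles), in batch 1 alone (squares) and in batch 2 alone (triangles). The 3 intervals of TAP1 lie below 0, and the point estimates of HLA-E, B2M, TAPBP and PSMB8 have opposite signs in the 2 batches.

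Each batch was also fitted alone, batch 1 with 2 libraries and batch 2 with 3 libraries per population. In batch 1, no member passed and 0.573% of all genes did. There, 1 of the 9 members and 2974 of all 23720 genes tested had an unadjusted p under 0.05 (edgeR). In batch 2, 1 member passed, TAP1, and 13.2% of all genes did. The log2 fold change of TAP1 was -0.61 in batch 1 (edgeR adjusted p = 0.280) and -0.37 in batch 2 (edgeR adjusted p = 0.0175). In batch 2, TAPBP at -0.30 (edgeR adjusted p = 0.0504) and PSMB9 at -0.52 (edgeR adjusted p = 0.0661) did not pass.

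The difference between the batches was tested as an interaction. No member passed, and 0.777% of all genes did. At an unadjusted p under 0.05 (edgeR) were 2 of the 9 members and 4445 of all 23552 genes tested. The 2 were TAPBP and PSMB8, with coefficients of opposite sign. TAPBP had log2 fold changes of 0.17 in batch 1 and -0.30 in batch 2 (interaction -0.47, edgeR adjusted p = 0.183). PSMB8 had log2 fold changes of -0.26 in batch 1 and 0.16 in batch 2 (interaction 0.42, edgeR adjusted p = 0.183). For TAP1 the interaction was 0.24 (interval -0.22 to 0.69, edgeR adjusted p = 0.563).

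Between the batches themselves, 3 members passed, while 47.9% of all genes did. HLA-B was 19.0 ± 1.47 CPM in batch 1 (n = 4) and 29.8 ± 0.531 CPM in batch 2 (n = 6), without overlap, a log2 fold change of 0.65 (edgeR adjusted p = 8.95e-06). PSMB9 rose from 0.739 ± 0.315 to 1.29 ± 0.259 CPM (log2 fold change 0.79, edgeR adjusted p = 0.0101), with overlapping ranges. HLA-C fell from 160 ± 9.04 to 133 ± 7.38 CPM (log2 fold change -0.27, edgeR adjusted p = 0.00401). The other heavy chain, HLA-E, differed by 0.09 on the log2 scale (edgeR adjusted p = 0.307). The ratio of HLA-C to HLA-B in RPKM accordingly ranged from 14.0 to 17.3 in batch 1 and from 7.62 to 8.63 in batch 2. With scaling by library size only, or without HHH replicate 3 of batch 2, 6 members passed. The share of all genes that passed under these settings is not given, so the 6 cannot be set against it. What else differed between the batches is not stated. The summed CPM of the interferon-stimulated genes ranged from 236 to 334 in batch 1 and from 336 to 384 in batch 2, and that of the class II genes from 65.9 to 89.1 and from 86.7 to 98.6. Most of the interferon-stimulated sum was IFITM1, IFITM2 and IFITM3, at means of 95.6, 88.2 and 59.2 CPM. Each of them was higher in batch 2 (edgeR adjusted p at most 0.0119). Of the other interferon-stimulated genes tested, IFIT1, MX1, BST2 and IFI16 also passed as higher in batch 2. ISG15, IFIT3, IFI6, IFI27 and UBE2L6 did not pass between batches. Of the class II genes, HLA-DQB1, CD74, HLA-DRA, HLA-DQA1 and HLA-DMB passed as higher in batch 2. CIITA (log2 fold change -0.50, edgeR adjusted p = 0.000369) and HLA-DMA (-0.43, edgeR adjusted p = 0.00485) passed as lower. HLA-DRB1, HLA-DPA1 and HLA-DPB1 did not pass. The part of these lists in the differences of HLA-B and PSMB9 was not tested.

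**Figure D3:**
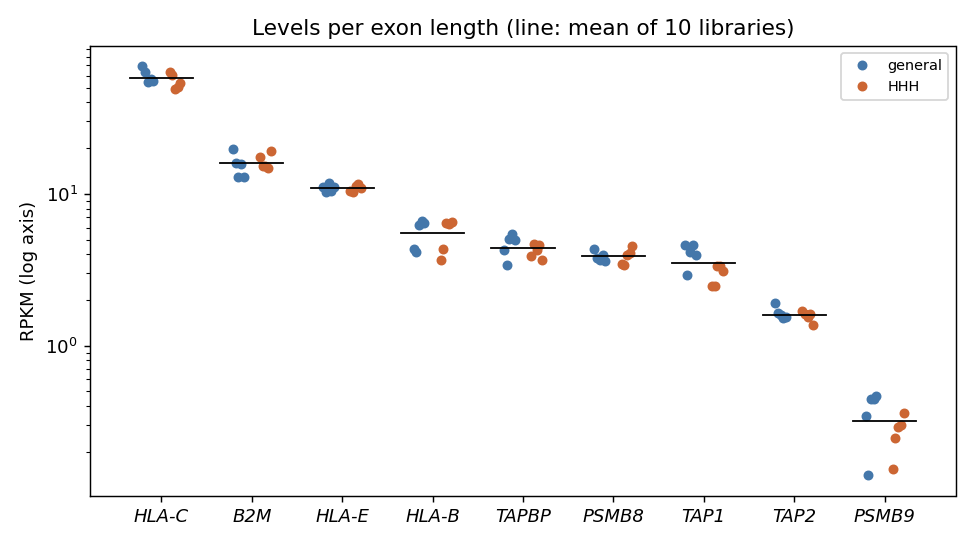
Level of each member per exon length in RPKM (y axis, log axis), ordered by the mean over the 10 libraries (line), with general libraries in blue and HHH libraries in orange. HLA-C stands highest at a mean of 57.5 RPKM, PSMB9 lowest at 0.320 RPKM, and HLA-B, TAPBP, PSMB8 and TAP1 overlap in range.

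Per exon length, HLA-C was the most abundant member at 57.5 RPKM (range 49.2 to 69.1 over 10 libraries). B2M followed at 15.9 RPKM (12.9 to 19.8) and HLA-E at 10.9 RPKM (10.3 to 11.8), and these 3 did not overlap in range. HLA-B at 5.51, TAPBP at 4.43, PSMB8 at 3.88 and TAP1 at 3.49 RPKM overlapped with their neighbours in this order. TAP2 at 1.60 RPKM (1.36 to 1.90) and PSMB9 at 0.320 RPKM (0.141 to 0.464) lay below them. Exon lengths were those of the GENCODE annotation, and with the lengths implied by the deposited log2 RPKM values the level of PSMB8 became 6.62 RPKM, that of TAP2 2.60 RPKM and that of HLA-B 7.99 RPKM, so the order in the middle of the list depends on the length used.

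The other genes of the pathway were 65, of which 59 were tested and 4 (6.78%) passed, 3 higher and 1 lower in HHH, beside 5.83% of all genes. With same-numbered libraries as a block, 2 of the 4 (SOCS1 and IFI16) passed. The median log2 fold change of the 59 tested genes was -0.02. Among 11 interferon receptor and signalling genes, 2 rose and none fell. SOCS1, an inhibitor of JAK kinases, was 5.47 ± 2.06 CPM in general and 10.7 ± 6.83 CPM in HHH libraries (log2 fold change 0.82, edgeR adjusted p = 0.00591). SOCS3, a related inhibitor, rose by 0.29 on the log2 scale (edgeR adjusted p = 0.0481, or 0.104 with the replicate block). Of 12 interferon-stimulated genes tested, 1 rose and 1 fell. IFIT3, an RNA-sensing cofactor, was at 13 to 35 counts (log2 fold change 0.79, edgeR adjusted p = 0.0370, or 0.103 with the block). IFI16, a sensor of DNA, was at 24 to 111 counts (log2 fold change -0.64, edgeR adjusted p = 0.0187). In batch 2 against batch 1, IFI16 differed by 1.26 on the log2 scale (edgeR adjusted p = 2.74e-05). SOCS1 differed by -1.29 between batches (edgeR adjusted p = 1.91e-05). For both genes the CPM ranges of the populations overlapped with the batches pooled.

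None of the remaining lists held a gene that passed. The class I gene regulators numbered 13, with NLRC5, the class I transactivator, at 0.26 (edgeR adjusted p = 0.499), IRF1 at -0.11 (adjusted p = 0.653) and CREB1 at 0.14 (adjusted p = 0.240) on the log2 scale. NLRC5 was read at 30 to 90 counts. The other class I genes HLA-F and HLA-G had log2 fold changes of 0.06 and 0.07, and the loading chaperones CANX and CALR of 0.04 and 0.17. The proteasome activator subunits PSME1 and PSME2 differed by -0.06 and 0.11, and the constitutive subunits PSMB5 and PSMB7 by 0.16 and 0.19.

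Class II molecules present peptides taken up from outside the cell, and the list of 10 class II genes held chains of these molecules, their loading and chaperone genes HLA-DMA, HLA-DMB and CD74, and their transactivator CIITA. The log2 fold change of CIITA was 0.13 (edgeR adjusted p = 0.435). None of the 10 passed. HLA-DQA1 at -0.70 (edgeR adjusted p = 0.0718), HLA-DQB1 at -0.30, HLA-DMB at -0.21, HLA-DRB1 at -0.19, HLA-DMA at -0.12 and CD74 at -0.11 were lower by sign, and HLA-DRA at 0.13, HLA-DPA1 at 0.12 and HLA-DPB1 at 0.08 were, with CIITA, higher by sign.

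**Figure D4:**
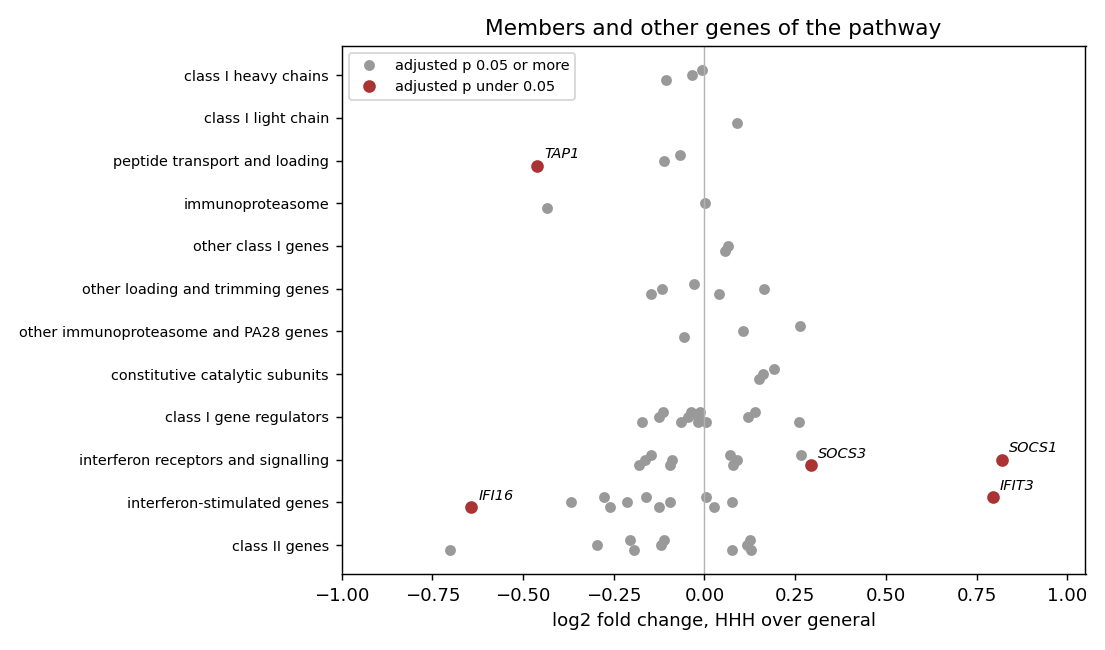
Log2 fold change of HHH over general (x axis) for every tested member and other pathway gene, by list (y axis; points are offset vertically only for legibility), with genes at an adjusted p under 0.05 in red and named. TAP1 and IFI16 lie below 0 and SOCS1, SOCS3 and IFIT3 above 0, while the other points, in grey, did not pass.

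Some markers of other cells were lower in HHH, as TAP1 was. Of 5 neural progenitor markers, 4 fell in HHH, among them OTX2 (109 ± 17.7 to 39.1 ± 5.57 CPM) and LHX5 (6.81 ± 3.23 to 0.145 ± 0.128 CPM), and the summed level of the list was 104 to 159 CPM in general and 38.4 to 53.4 CPM in HHH libraries. Most of that sum was OTX2, which pluripotent cells also express. PAX6, a defining marker, was at 33 to 69 counts and did not pass (log2 fold change -0.15, edgeR adjusted p = 0.665). Of the trophoblast and amnion list 1 of 2 tested genes fell, KRT7 (log2 fold change -0.76, edgeR adjusted p = 0.00149), while HLA-G was at 0.07, with summed levels of 8.65 to 14.2 and 6.52 to 9.33 CPM, and the defining markers GATA3 and CGA stood at 1 to 6 and 0 to 1 counts. Of the fibroblast list 1 of 2 tested genes fell, COL1A1 (log2 fold change -0.94, edgeR adjusted p = 0.00334), and COL1A2 passed as well with the replicate block (-0.37, edgeR adjusted p = 0.0281, against 0.105 without it), with summed levels of 115 to 138 and 77.9 to 119 CPM, and DCN stood at 0 to 1 and COL3A1 at 0 to 8 counts. The part of these markers' cells in the lower TAP1 was not tested.

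The mesendoderm list had 1 gene tested and none that passed, with summed levels of 0.570 to 1.20 CPM in general and 0.572 to 0.936 CPM in HHH libraries. The leukocyte list had 2 tested and none that passed (11.3 to 23.2 and 9.49 to 21.9 CPM), with PTPRC at 1 to 7 and CD3E at 0 to 2 counts, so leukocyte-defining markers were near 0 while CD74, also a class II gene, made up most of the sum. Of 8 pluripotency markers, 2 rose (NANOG, log2 fold change 0.44, edgeR adjusted p = 0.00572, and EPCAM) and 1 fell (SOX2, log2 fold change -0.26, edgeR adjusted p = 0.0375, or 0.0773 with the block), with summed levels of 4039 to 5287 and 3933 to 5039 CPM. With the block, TDGF1 (0.44, edgeR adjusted p = 0.0342, against 0.0749 without it) and CD9 passed too, so that 4 rose and none fell.

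**Figure D5:**
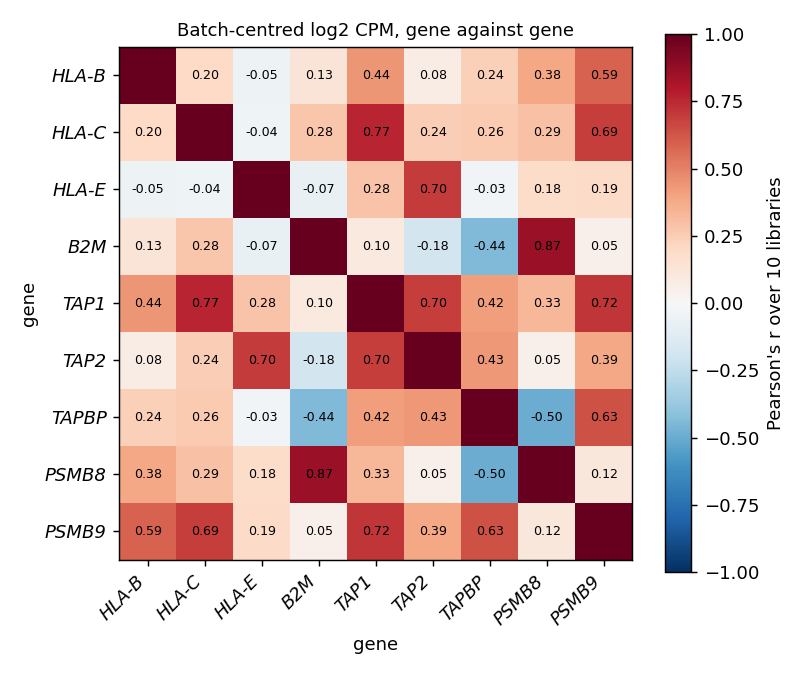
Pearson's r of log2 CPM between members (both axes) after each batch's mean was subtracted, over 10 libraries, from blue (-1) to red (1). B2M with PSMB8 is the highest pair at 0.87 and TAPBP with PSMB8 the lowest at -0.50.

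How the members varied together was described by Pearson's r of log2(CPM + 0.1) over the 10 libraries after the mean of each batch was subtracted. The points share library scaling and the populations, so r is given without a test. The 36 pairs ranged from -0.495 to 0.866 with a median of 0.254, and 8 pairs were above 0.5. B2M went with PSMB8 (0.866) and HLA-E with TAP2 (0.695). TAP1 went with HLA-C (0.765), with its neighbour PSMB9 (0.716) and with its partner TAP2 (0.695). PSMB9 also went with HLA-C (0.692), TAPBP (0.634) and HLA-B (0.591). The lowest r was that of TAPBP with PSMB8 (-0.495), whose signs in the batches were opposite.

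Of 10796 genes with at least 10 CPM on average, those most like TAP1 were FGD6 (r = 0.976), DCAF11 (0.972) and PLPP2 (0.971). Those most like PSMB9 were DDIT4 (0.906), BST2 (0.900) and PXYLP1 (0.888), of which BST2, the antiviral protein tetherin, belongs to the interferon-stimulated list. Those most like B2M were NTPCR (0.986), DSE (0.981) and the ribosomal protein RPS3 (0.970). Most like HLA-E were ARFGEF2 (0.821), the transcription factor FOS (0.782) and an unnamed protein-coding gene (0.773) that overlaps TAP2. All 12 are maxima over many genes and 10 libraries, and none of the 12 passed the test between populations.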

How the data were processed

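RNA was sequenced in 10 libraries, 5 general and 5 HHH. The authors deposited raw counts per Ensembl gene and a table named as log2 RPKM after TMM scaling. The deposited log2 values (handled as a score) had equal batch means for genes counted in every library, so a batch term had been removed. The submitters' processing notes name CASAVA 1.8.2, R 3.2.2, limma 3.26.9 and GRCh37. The counting tool and strand setting are not given in the sources used here. Of 55841 identifiers, 49395 (88.5%) matched GENCODE 44 on GRCh38, and 6446 without a match held 7.44% to 20.3% of counts per library. There were 0 columns of other samples.

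Counts were fitted with edgeR 4.0.16 (R 4.3.3) by the quasi-likelihood F test, two-sided, with batch and population as terms, TMM scaling, a minimum count of 10 in filterByExpr and adjustment by Benjamini-Hochberg over every gene tested. A gene passed at an adjusted p under 0.05. The procedure was tested on simulated data. RPKM used TMM-scaled CPM and union exon lengths. Motifs were searched on both strands. Alternatives were DESeq2 1.42.0, limma 3.58.1 on the deposited values, other scalings and filters, no batch term, each batch alone and leaving out each library.

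The members and lists were chosen with earlier results of these data known. Named were all members, the genes of each list that passed (or the 2 with the highest mean CPM where none did), the class II genes, NLRC5, CIITA and IRF1, and the 3 genes most like B2M, HLA-E, TAP1 and PSMB9. A further gene that this rule names is not reported here. Replicate numbers come from the titles. Deviations from the group means correlated at 0.113 to 0.239 in the 3 same-numbered pairs of batch 2, so the numbers were taken as pairs and a fit with the replicate block was added. Batch 1 bears on this little, since with 2 libraries per group its same-numbered pair and 1 other pair share the value 0.113. In batch 1, general replicate 1 and HHH replicate 3 had no same-numbered partner. The block fit therefore took no population difference from these libraries. Its differences from the main fit mix pairing with the loss of these libraries. Intervals cover the spread between libraries.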

Additional observations from a re-analysis of the deposited data

How the results depend on the processing

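Members that passed between populations numbered 0 without a batch term, in batch 1 alone, with limma on the deposited log2 values and on those values centred (chosen after seeing the data), and 0 to 1 when each library was left out. For TAP1 the log2 fold change stayed negative under all 23 alternatives (-0.61 to -0.33), and it passed in 17, with adjusted p = 0.273 without a batch term, 0.0577 with the deposited values and 0.0830 with them centred. With the replicate block TAP1 was at -0.34 (edgeR adjusted p = 0.0317), no member's call changed and 1636 genes passed. Without general replicate 1 of batch 1, a library with no partner in that block, TAP1 was at -0.33. Genes passed numbered 1373 as reported, 168 without a batch term, 136 in batch 1, 3166 in batch 2, 2423 without the filter and 806 to 2347 with each library left out. Members passed between batches numbered 6 with library size only and 3 to 6 with each library left out, without a share over all genes for these settings.

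Signs turned for 5 members whose intervals included 0: HLA-E was at 0.015 in batch 2, 0.016 with the centred values, 0.0033 without the filter, 0.021 with the block and -0.031 to 0.019 with each library left out, and HLA-B at 0.0092 without HHH replicate 2 of batch 1 (leave-one-out range -0.061 to 0.0092). B2M was at -0.13 in batch 1 and -0.047 with the deposited values, and TAPBP at 0.17 in batch 1. PSMB8 was at -0.0094 with at least 1 CPM in 5 libraries, -0.26 in batch 1, -0.034 with library size only, -0.14 with the deposited values, -0.022 with upper quartile scaling and -0.058 to 0.072 with each library left out. The causes were not tested. With implied lengths B2M was at 13.4 and TAPBP at 5.68 RPKM. With 24 to 93 counts, PSMB9 limits what could be detected.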
